A study of Homo sapiens with 6 samples.

Results

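The genes examined were 10 that write, read, erase or help to interpret DNA methylation: DNMT1, DNMT3A, DNMT3B, UHRF1, TET1, TET2, TET3, MBD2, ZFP57 and TRIM28. They were taken by name from the 60483 genes of the raw count table and matched by Ensembl identifier. Of these 10 genes, 9 had enough counts to be tested, together with 16198 genes in all, and ZFP57 did not. RNA-seq libraries were made from A2780 cells, a human ovarian carcinoma line, in 3 WT libraries and 3 libraries of A2780 cells whose genotype is CDK12 KO. The KO cells were made by CRISPR/Cas9 transfection against exon 1 of CDK12, a transcription-associated kinase that phosphorylates RNA polymerase II. They descend from 1 clone, and the study describes that clone as having more chromosomes than the parental line, so the genotype, the clone and its chromosome content cannot be told apart. The labels give no treatment. The labels do not say whether the 3 libraries of a group came from separate cultures, so the p-values below measure the spread between these libraries, which may be technical.

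In mammalian cells DNA methylation sits mostly on the cytosine of CpG dinucleotides. DNMT3A and DNMT3B place new methyl groups, while DNMT1, brought to newly replicated DNA by UHRF1, copies the existing pattern onto the daughter strand. The TET enzymes oxidise methylcytosine, which opens the way to its loss. MBD2 binds methylated CpG and recruits the NuRD corepressor complex, and ZFP57 binds methylated imprinting control regions and recruits TRIM28, the corepressor of KRAB zinc finger proteins. Only RNA was measured here, so the values say nothing of methylation itself or of protein.

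The promoters of the maintenance genes and of the gene that rose are shown to give their CpG content. Each is the 250 bases upstream of the start of the Ensembl canonical transcript in GENCODE 44, read 5′ to 3′ from the GRCh38 genome, with CpG dinucleotides in capitals. The windows are chr19:10194954-10195203 on the minus strand for DNMT1, chr19:4909251-4909500 on the plus strand for UHRF1 and chr18:54224670-54224919 on the minus strand for MBD2.
DNMT1: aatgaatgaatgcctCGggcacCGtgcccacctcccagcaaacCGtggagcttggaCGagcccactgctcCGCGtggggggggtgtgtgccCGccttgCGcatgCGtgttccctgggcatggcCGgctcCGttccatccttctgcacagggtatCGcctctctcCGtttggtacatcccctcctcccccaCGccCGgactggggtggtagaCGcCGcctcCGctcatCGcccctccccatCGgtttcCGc
UHRF1: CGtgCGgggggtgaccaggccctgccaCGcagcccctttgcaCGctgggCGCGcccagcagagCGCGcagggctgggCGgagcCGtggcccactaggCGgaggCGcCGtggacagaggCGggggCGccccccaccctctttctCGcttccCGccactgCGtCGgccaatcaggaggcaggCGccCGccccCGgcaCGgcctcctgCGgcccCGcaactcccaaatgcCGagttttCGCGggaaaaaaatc
MBD2: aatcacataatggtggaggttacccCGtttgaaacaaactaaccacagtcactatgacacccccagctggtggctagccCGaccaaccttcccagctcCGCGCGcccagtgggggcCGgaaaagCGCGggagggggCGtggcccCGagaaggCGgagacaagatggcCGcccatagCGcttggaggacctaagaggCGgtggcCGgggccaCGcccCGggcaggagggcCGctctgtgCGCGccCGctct
These windows held 21 CpG in DNMT1, 28 in UHRF1 and 21 in MBD2, and that of DNMT3B held 23. The windows of TET3, TET2 and DNMT3A were richer, with 37, 34 and 33 CpG, and those of ZFP57, TET1 and TRIM28 were poorer, with 12, 9 and 9. Over 20044 protein-coding promoters of the same length the median was 18 CpG, with quartiles of 7 and 27. Of the E2F-type motifs TTTCGCGC, TTTGGCGC, TTTCCCGC and TTTGCCGC, searched separately on both strands, TTTCCCGC was found in the window of UHRF1 and the others in none of these windows. Over all promoters 1.98% held TTTCCCGC and 3.76% held any of the 4. CCAAT, searched likewise, was found only in the window of UHRF1 among them, and 34.3% of all promoters held it. DNMT1, which fell, and MBD2, which rose, held the same number of CpG. Any relation between CpG number and the changes was not tested.

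Library totals ranged from 11098400 to 30899045 counts, and 3 counts corresponded to at most 0.270 CPM. CPM are counts scaled to library size with the trimmed mean of M values (TMM). CDK12 RNA, the targeted transcript, was present in every library. It was at 103, 125 and 117 CPM in the WT libraries and at 99.0, 93.0 and 102 CPM in the KO libraries, so the groups did not overlap but the transcript was not lost. The log2 fold change of KO against WT was -0.23 (SE 0.0582, adjusted p = 8.20e-04, edgeR quasi-likelihood test with Benjamini-Hochberg adjustment). Gene counts do not tell edited from unedited CDK12 transcripts. By the study's account, sequencing of DNA and cDNA found a deletion and an insertion in the CDK12 alleles of the clone. Its western blots showed no CDK12 protein in the KO cells. Several defining markers of ovarian carcinoma were near 0 in both groups. PAX8 averaged 0.200 CPM in WT and 0.0531 in KO, and MUC16 averaged 0.0122 and 0, while the keratin KRT18 was at 59.9 and 103 CPM. Of 14 epithelial and ovarian markers, 5 were tested, and the list summed to 205 to 217 CPM in WT and 249 to 254 CPM in KO. Most of that sum came from ARID1A, at 138 and 133 CPM, and KRT18. Endothelial markers summed to 4.34 to 5.31 and 3.99 to 4.94 CPM, mostly from ERG at 4.70 and 3.84 CPM. Leukocyte markers summed to 0.701 to 1.20 and 0.730 to 1.34 CPM.

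At an adjusted p under 0.05, 5 of the 9 tested genes were lower in the KO cells (DNMT3B, TET1, UHRF1, TET3 and DNMT1) and 1, MBD2, was higher. The other 3 (DNMT3A, TRIM28 and TET2) did not pass the test. The KO cells differed widely from WT, and 63.9% of all tested genes passed this threshold, 32.0% lower and 31.9% higher, so the 66.7% of genes called here lay close to that background. Over the 9 genes the log2 fold changes had a median of -0.19, against 0.00 over all tested genes, and 8 of the 9 were negative. The KO and WT values did not overlap for 7 of the 9 genes, or 77.8%, against 66.4% of all tested genes. Under the stricter rule of the study, which adds a log2 fold change above 1 or below -1, only DNMT3B was called, while 16.0% of all tested genes were called in either direction and 7.73% in the lower direction.

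**Figure D1:**
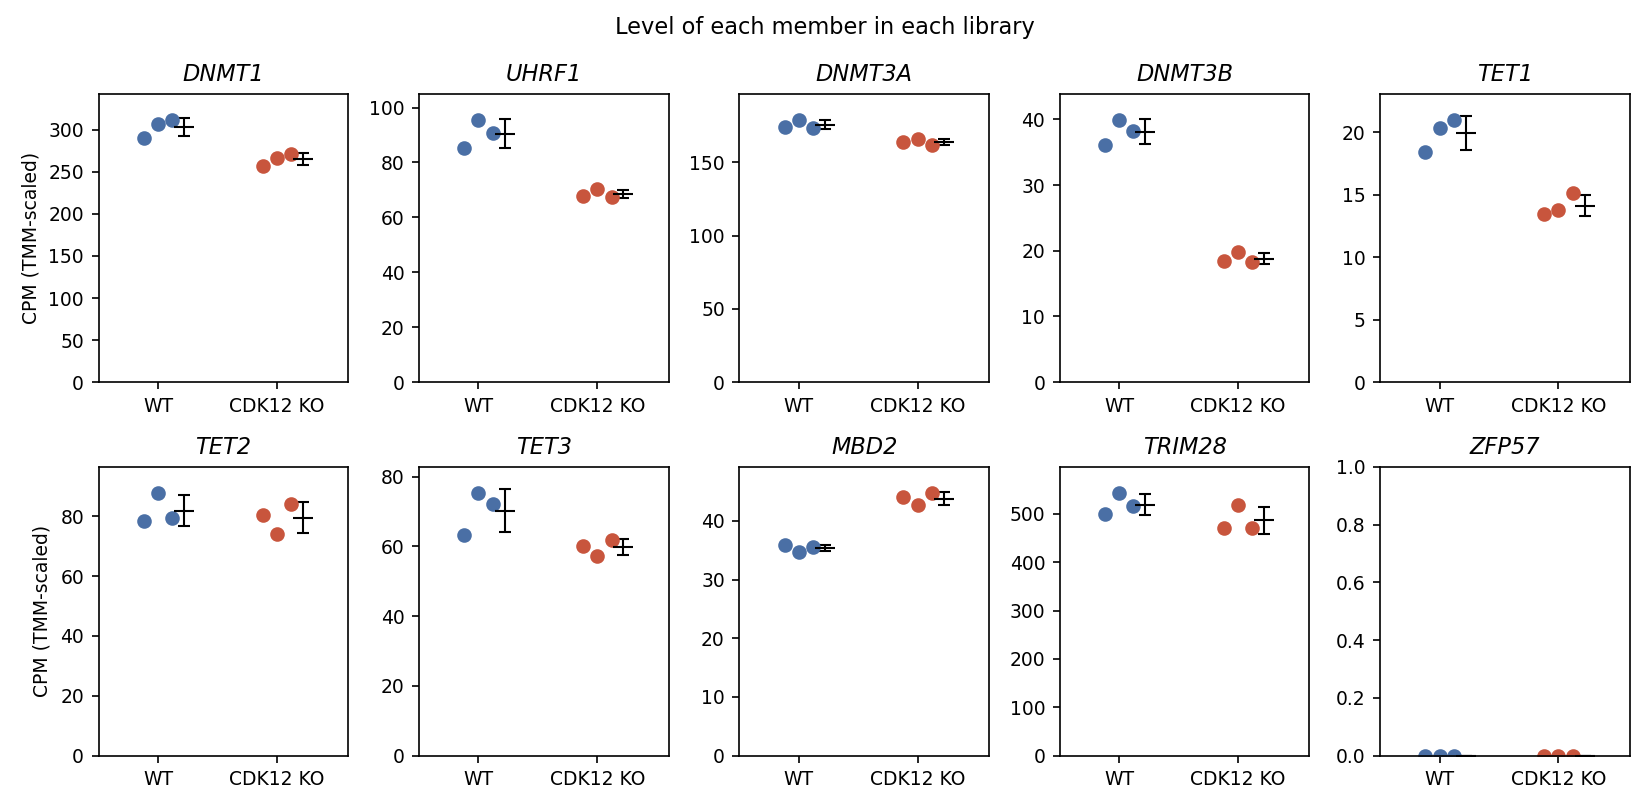
TMM-scaled CPM (vertical axes from 0, separate for each gene) of the 10 genes in 3 WT libraries (blue) and 3 CDK12 KO libraries (red). Points are libraries, and the black bar and whiskers are the group mean and SD. DNMT3B shows the widest gap between the groups, MBD2 is higher in all 3 KO libraries, and ZFP57 is at 0 in all 6.

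Among the writers, DNMT3B changed most. DNMT3B (ENSG00000088305, GRCh38 chr20:32762385-32809359, plus strand) encodes a de novo methyltransferase that is abundant in embryonic cells and often raised in tumours. Its level was 36.1, 40.0 and 38.3 CPM in the WT libraries and 18.4, 19.8 and 18.3 CPM in the KO libraries, from 990, 1197 and 425 counts and 452, 533 and 325 counts. Every KO library lay well below every WT library. The KO level was 49.5% of WT (95% interval 45.0 to 54.5%), a log2 fold change of -1.01 (SE 0.0674, adjusted p = 1.13e-14). That value sat just past the study's fold limit, and without WT replicate 2, CDK12 KO replicate 1 or CDK12 KO replicate 3 it was -0.974, -0.997 and -0.995, so the stricter call was lost while the adjusted p stayed at or below 2.09e-11. In size, 84.3% of tested genes had a smaller log2 fold change. For the other genes called here this share was 65.7% (TET1), 58.1% (UHRF1), 49.0% (MBD2), 39.3% (TET3) and 33.6% (DNMT1). MBD2, TET3 and DNMT1 thus changed less than the median tested gene, whose absolute log2 fold change was 0.317.

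DNMT3A (ENSG00000119772, chr2:25227855-25342590, minus strand), the other de novo methyltransferase, was at 174, 179 and 173 CPM in WT and at 164, 166 and 162 CPM in KO. The groups did not overlap, but the gap was small. The log2 fold change was -0.10 (SE 0.0464, 95% interval -0.20 to -0.0061) and the adjusted p was 0.0580, so a change was not called. No count fell on the DNMT3A pseudogene DNMT3AP1, and DNMT3L, the catalytically inactive cofactor of both enzymes, had 0 counts in all 6 libraries.

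Since DNMT3B fell further than DNMT3A, their ratio within a library moved. Levels of different genes were compared as RPKM, TMM-scaled CPM per kilobase of merged exons. The DNMT3A to DNMT3B ratio of RPKM was 2.41, 2.24 and 2.26 in WT and 4.45, 4.18 and 4.42 in KO, a 1.89-fold higher ratio in KO, with groups that did not overlap. The exact permutation test of 3 libraries against 3 gave p = 0.1, two-sided, which is the smallest it can give, and 0.125 after adjustment over the 5 ratios tested. As a share of the summed RPKM of the DNMT genes, DNMT3B went from 14.6% ± 0.360 in WT to 8.59% ± 0.324 in KO (SD, n = 3). DNMT3A went from 33.5% ± 0.827 to 37.3% ± 0.719, and DNMT1 from 51.9% ± 0.785 to 54.1% ± 0.902. With canonical transcript lengths the DNMT3B share was 10.3% and 6.03%, and DNMT1 took 67.7% and 69.8%.

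DNMT1 and UHRF1, which maintain methylation after replication, were both lower in the KO cells, by less than DNMT3B. DNMT1 (ENSG00000130816, chr19:10133342-10231286, minus strand) was at 291, 307 and 312 CPM in WT and at 257, 266 and 272 CPM in KO. The groups were apart, with a log2 fold change of -0.19 (SE 0.0471, adjusted p = 6.08e-04), a KO level of 87.4% of WT (95% interval 81.8 to 93.4%). S1PR2, a sphingosine 1-phosphate receptor gene annotated inside the DNMT1 span on the same strand, fell as well, from 16.6 to 9.45 CPM (log2 fold change -0.83, adjusted p = 6.06e-10). Its counts came to at most 5.83% of those of DNMT1, and how reads shared by overlapping genes were counted is not given in the sources used here.

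UHRF1 (ENSG00000276043, chr19:4903080-4962154, plus strand) reads hemimethylated CpG. It was at 85.1, 95.6 and 90.7 CPM in WT and at 67.8, 70.3 and 67.5 CPM in KO, with no overlap. The log2 fold change was -0.40 (SE 0.0532, adjusted p = 8.70e-08), a KO level of 75.8% of WT (95% interval 70.3 to 81.8%). The UHRF1 to DNMT1 ratio of RPKM was 0.876, 0.929 and 0.869 in WT and 0.789, 0.789 and 0.743 in KO, a 0.868-fold ratio (exact permutation p = 0.1). UHRF1 therefore stood lower relative to DNMT1 in every KO library than in any WT library.

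Both genes are expressed mainly in dividing cells, and genes of S phase moved in the same direction. Of 18 S-phase and proliferation genes, 13 were lower (72.2%, beside 32.0% of all tested genes) and 3 higher (16.7%, beside 31.9%). Their median log2 fold change was -0.22, and their summed level was 4492 to 4815 CPM in WT and 4181 to 4189 CPM in KO. Cyclin E2 (CCNE2) fell most, from 3.48 to 0.528 CPM (log2 fold change -2.63, adjusted p = 1.69e-11), followed by cyclin A2 (CCNA2, -0.54, adjusted p = 2.06e-11). CDT1, which licenses replication origins, rose by 0.43 (adjusted p = 7.71e-09) and the proliferation marker MKI67 by 0.26 on the log2 scale (adjusted p = 3.05e-04). The part of these genes in the falls of DNMT1 and UHRF1 was not tested.

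**Figure D2:**
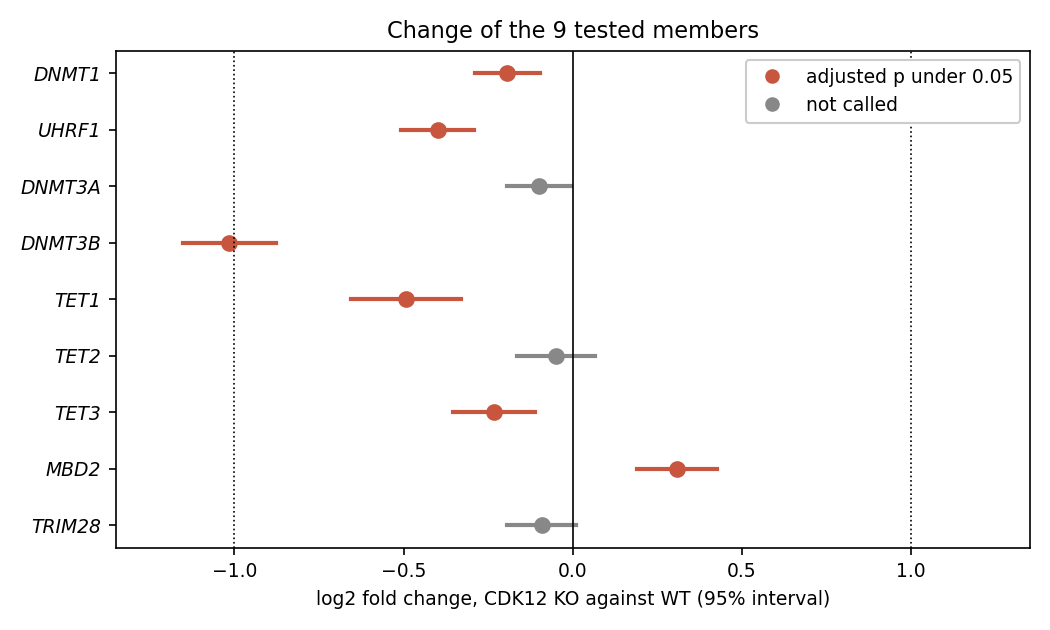
Log2 fold change of CDK12 KO against WT for the 9 tested genes (horizontal axis), with 95% intervals as bars and dotted lines at -1 and 1. Red marks an adjusted p under 0.05. DNMT3B lies at -1.01, TET1 and UHRF1 at -0.49 and -0.40, and MBD2 alone lies above 0, at 0.31.

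Of the erasers, TET1 and TET3 were called lower and TET2 was not. TET1 (ENSG00000138336, chr10:68560337-68694487, plus strand) was at 18.4, 20.4 and 21.0 CPM in WT and at 13.5, 13.8 and 15.1 CPM in KO, all KO values below all WT values. Its log2 fold change was -0.49 (SE 0.0799, adjusted p = 2.74e-06), a KO level of 71.1% of WT (95% interval 63.5 to 79.6%). TET3 (ENSG00000187605, chr2:73984910-74108176, plus strand) was at 63.4, 75.2 and 72.0 CPM in WT and at 60.0, 57.4 and 61.9 CPM in KO. Its groups were apart by little, and its log2 fold change was -0.23 (SE 0.0593, adjusted p = 0.00101).

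TET2 (ENSG00000168769, chr4:105145875-105279816, plus strand), which lacks the CXXC domain that TET1 and TET3 carry, was at 78.4, 87.7 and 79.6 CPM in WT and at 80.4, 73.9 and 84.2 CPM in KO. These values overlapped. The log2 fold change was -0.05 (SE 0.0564, adjusted p = 0.453), with a 95% interval from -0.16 to 0.07, or 89.2 to 105% of the WT level. Its sign turned without WT replicate 2 (0.0041) or CDK12 KO replicate 2 (0.0026).

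Within a library, TET1 and TET3 were lower relative to TET2 in the KO cells. The TET1 to TET2 ratio of RPKM was 0.403, 0.398 and 0.452 in WT and 0.287, 0.320 and 0.308 in KO, a 0.731-fold ratio. The TET3 to TET2 ratio was 1.03, 1.09 and 1.15 in WT and 0.951, 0.988 and 0.935 in KO, a 0.879-fold ratio. Neither ratio overlapped between groups, and each had an exact permutation p of 0.1, adjusted to 0.125. The summed RPKM of the TET genes relative to that of DNMT3A and DNMT3B was 0.646, 0.705 and 0.694 in WT and 0.749, 0.694 and 0.797 in KO, with overlap (exact permutation p = 0.2). A ratio of sums depends on the gene lengths. With canonical transcript lengths it was 0.572, 0.620 and 0.605 in WT and 0.682, 0.627 and 0.725 in KO, where the groups did not overlap (exact permutation p = 0.1).

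**Figure D3:**
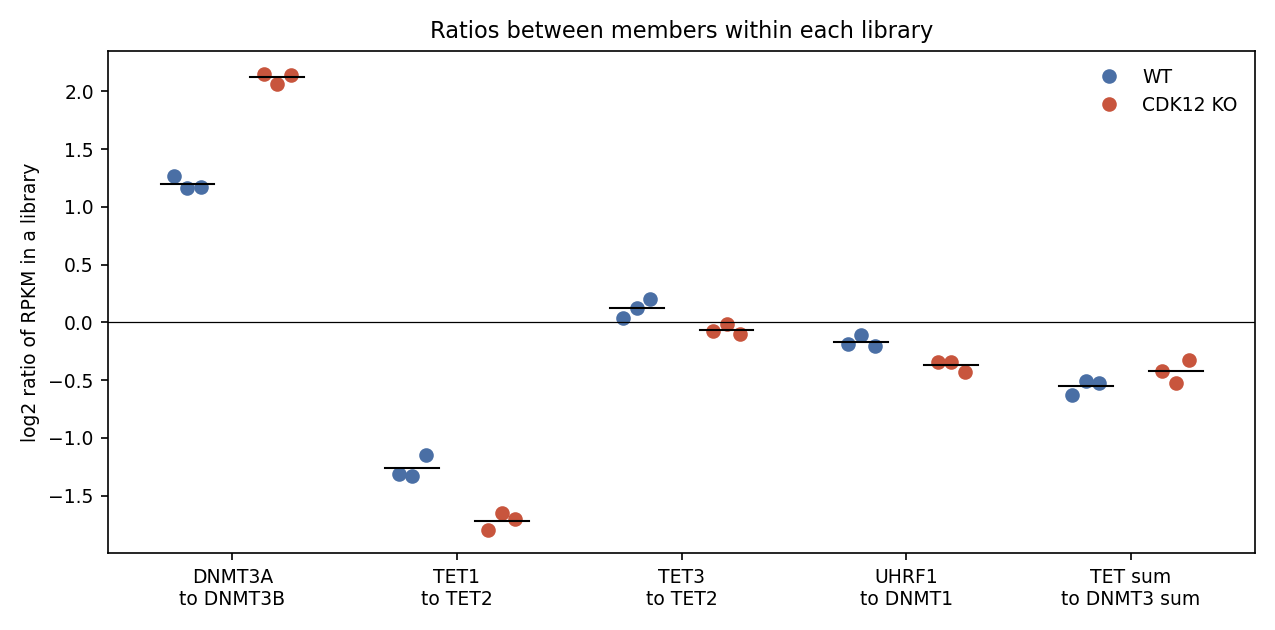
Log2 ratio of RPKM between genes of the same library (vertical axis) for the 5 ratios tested, with WT libraries in blue, CDK12 KO libraries in red and group means as black lines. The DNMT3A to DNMT3B ratio moves most, by 0.92 on the log2 scale. The ratio of the TET sum to the DNMT3 sum overlaps between the groups with the merged exon lengths plotted here, though not with canonical transcript lengths.

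Among the readers, MBD2 (ENSG00000134046, chr18:54151606-54224669, minus strand) rose. It was at 35.8, 34.8 and 35.5 CPM in WT and at 44.03, 42.6 and 44.7 CPM in KO, with groups that were far apart relative to their spread. The log2 fold change was 0.31 (SE 0.0582, adjusted p = 2.73e-05), a KO level of 124% of WT (95% interval 114 to 134%). ZFP57 (ENSG00000204644, chr6:29672483-29681155, minus strand) had 0 counts in all 6 libraries. With 3 counts as the limit that a count of 0 allows, its level lay below 0.270 CPM in each library, counting error only.

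TRIM28 (ENSG00000130726, chr19:58544064-58550722, plus strand), the corepressor that ZFP57 and other KRAB zinc finger proteins recruit, was at 499, 542 and 516 CPM in WT and at 471, 519 and 470 CPM in KO. The groups overlapped, because CDK12 KO replicate 2 lay within the WT range. The log2 fold change was -0.09 (SE 0.0495, 95% interval -0.19 to 0.0086, adjusted p = 0.103). Leaving out WT replicate 1 or CDK12 KO replicate 2 made it -0.13 (adjusted p = 0.0283) and -0.14 (adjusted p = 0.0178).

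Per length, TRIM28 was the most abundant of these RNAs in WT cells, at 121 ± 5.10 RPKM (SD, n = 3). DNMT1 followed at 19.7 ± 0.728, UHRF1 at 17.6 ± 1.01, DNMT3A at 12.7 ± 0.224 and MBD2 at 6.22 ± 0.0948 RPKM. DNMT3B at 5.54 ± 0.279, TET3 at 5.42 ± 0.475 and TET2 at 4.97 ± 0.308 RPKM overlapped with their neighbours in this order, and TET1 came next at 2.07 ± 0.138 RPKM. The first 5 kept this order in KO cells, at 113, 17.2, 13.3, 11.9 and 7.70 RPKM. TET2 and TET3 came next, at 4.83 and 4.62 RPKM with overlap, and DNMT3B lay below both, at 2.74 ± 0.124 RPKM and above TET1 at 1.47 ± 0.0909. The order depended on the length used. With the canonical transcript, 5274 bases for DNMT1 in place of 15379, DNMT1 stood at 57.5 RPKM in WT and 50.2 in KO, DNMT3B and TET2 lay above MBD2 in WT, and UHRF1 and DNMT3A overlapped in KO.

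The tested genes whose profile over the 6 libraries was most like that of DNMT3B were ARHGEF10, KNOP1 and LAMB1. Their centred log2 CPM differed from that of DNMT3B by a root mean square of 0.0196, 0.0223 and 0.0257. ARHGEF10 went from 64.1 to 31.0 CPM, KNOP1 from 76.3 to 38.0 and LAMB1 from 33.8 to 17.0. With 2 groups of 3 libraries, a profile is mostly the difference between the groups.

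Of 88 genes in 6 lists of partners and related pathways, 79 were tested, and 29 were higher and 31 lower at an adjusted p under 0.05, with a median log2 fold change of -0.06. The 60 genes called were 75.9% of those tested, beside 63.9% of all tested genes. Past the stricter rule were 1 higher and 3 lower, or 5.06%, beside 16.0% of all tested genes. In each list below, the counts stand beside 32.0% lower and 31.9% higher over all tested genes.

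Among the partners of maintenance and de novo methylation, 3 of 12 tested genes were higher and 6 lower. TRDMT1, a DNMT-related enzyme that methylates tRNA, fell from 15.6 to 6.23 CPM (log2 fold change -1.34, adjusted p = 3.35e-14) and was the only gene of the list past the stricter rule. HELLS, the chromatin remodeller that acts with CDCA7 in DNA methylation, fell from 190 to 124 CPM (-0.62, adjusted p = 1.31e-12), and CDCA7 fell from 198 to 135 CPM (-0.55, adjusted p = 1.20e-11). The histone methyltransferases NSD1, NSD2 and SETD2, whose H3K36 marks are bound by the DNMT3 enzymes, went in different directions. NSD2, named after its value was seen, fell from 237 to 165 CPM (-0.52, adjusted p = 5.83e-11), while NSD1 rose from 130 to 196 CPM (0.60, adjusted p = 7.65e-11) and SETD2 from 48.8 to 62.7 CPM (0.36, adjusted p = 5.77e-06).

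Of 9 other genes from the families of methyl-CpG readers, 5 were higher and 2 lower. ZBTB33, which encodes the reader Kaiso, fell from 47.4 to 14.9 CPM (-1.68, adjusted p = 9.65e-20). MBD6 rose by 0.39 (adjusted p = 3.81e-07) and ZBTB4 by 0.37 on the log2 scale (adjusted p = 9.04e-07).

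In NuRD, the complex that MBD2 recruits, 8 of 11 genes were lower (72.7%) and 2 higher (18.2%), beside 32.0% and 31.9% of all tested genes. The deacetylase HDAC1 fell from 230 to 154 CPM (-0.58, adjusted p = 2.16e-12) and MTA3 from 88.7 to 59.9 CPM (-0.57, adjusted p = 2.06e-11). The remodeller CHD4 rose from 390 to 564 CPM (0.53, adjusted p = 2.86e-11) and GATAD2B from 163 to 229 CPM (0.49, adjusted p = 7.01e-10). No gene of the complex passed the stricter rule. The list summed to 2308 to 2409 CPM in WT and 2191 to 2227 CPM in KO, a smaller difference than the number of lower genes alone would convey.

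Among genes of demethylation, base excision repair and TET cofactor supply, 5 of 15 tested were higher and 7 lower. GADD45B, a stress-induced gene linked to active demethylation, fell from 23.6 to 4.69 CPM (-2.31, adjusted p = 7.46e-19). CXXC5 fell from 3.50 to 1.85 CPM (-0.90, adjusted p = 4.57e-05). NEIL1, a DNA glycosylase, rose from 13.8 to 27.2 CPM (0.998, adjusted p = 4.13e-12), just short of the stricter rule, and D2HGDH, which removes the TET inhibitor D-2-hydroxyglutarate, rose from 17.5 to 28.7 CPM (0.71, adjusted p = 1.14e-10).

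In the cycle that supplies the methyl donor S-adenosylmethionine, 8 of 15 tested genes were higher and 3 lower. These 11 were 73.3% of the list, beside 63.9% called over all tested genes, and the list summed to 2090 to 2170 CPM in WT and 2505 to 2533 CPM in KO. The folate enzymes SHMT2 and MTHFD1 rose most, from 166 to 272 CPM (0.71, adjusted p = 7.20e-14) and from 236 to 380 CPM (0.68, adjusted p = 8.68e-14). MTAP, of methionine salvage, fell from 79.3 to 58.3 CPM (-0.44, adjusted p = 1.68e-08). MAT2A and MAT2B, of S-adenosylmethionine synthesis itself, were not called (0.09, adjusted p = 0.0956, and 0.08, adjusted p = 0.186).

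Of 17 partners of TRIM28, 6 were higher and 5 lower, and 8 were lower without WT replicate 1. ATF7IP, the cofactor of the histone methyltransferase SETDB1, rose from 116 to 235 CPM (1.02, adjusted p = 8.53e-17) and TRIM66 from 17.3 to 33.3 CPM (0.96, adjusted p = 2.97e-13). ZNF445, a KRAB zinc finger protein that also binds imprinting control regions, rose from 41.6 to 62.7 CPM (0.59, adjusted p = 1.16e-10). CBX5, which encodes HP1 alpha, fell from 303 to 205 CPM (-0.56, adjusted p = 1.62e-10) and MORC2 from 74.3 to 58.3 CPM (-0.35, adjusted p = 1.49e-06).

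**Figure D4:**
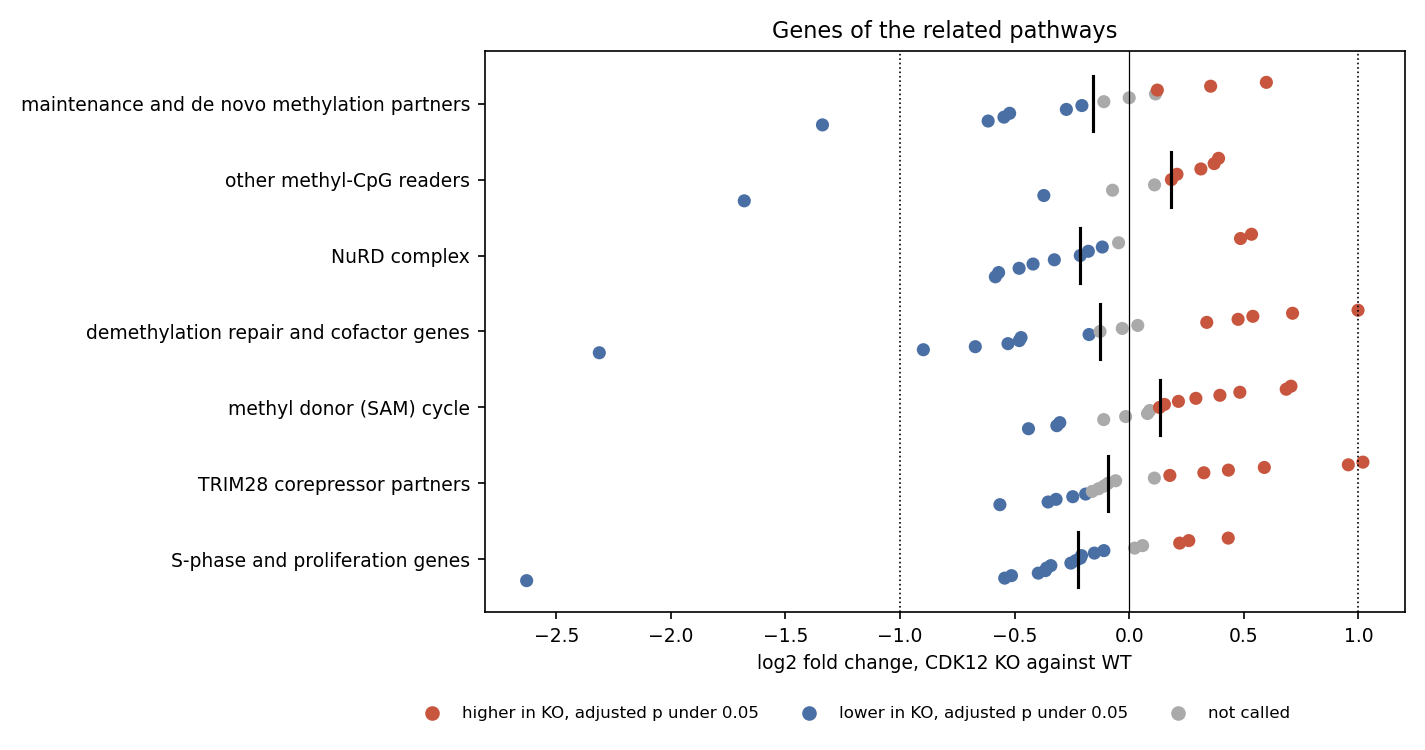
Log2 fold change of CDK12 KO against WT (horizontal axis) for the tested genes of the 6 pathway lists and of the S-phase list, 1 point a gene. Red points were higher and blue points lower at an adjusted p under 0.05, grey points were not called, black bars are list medians and dotted lines mark -1 and 1. NuRD and S-phase genes lie mostly below 0, methyl donor genes mostly above, and GADD45B and ZBTB33 lie at -2.31 and -1.68.

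Genes that are commonly silenced by promoter methylation outside the germline stayed near 0. Of 25 such germline genes, 20 had at most 3 counts in every library and 1, SYCP2 of the synaptonemal complex, was tested. It rose from 1.32 to 2.49 CPM (0.96, adjusted p = 7.08e-05), and the list summed to 1.64 to 2.07 CPM in WT and 3.34 to 3.37 CPM in KO.

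Imprinted genes, whose parental allele is marked by methylation, changed in both directions. Of 22 listed genes, 16 were tested, with 6 higher and 8 lower, and 4 in each direction were past the stricter rule. The 14 called were 87.5% of those tested and the 8 past the stricter rule 50%, beside 63.9% and 16.0% of all tested genes. The list was chosen with earlier results of these data known, so these shares do not test imprinted genes as a group. MEST, PEG10 and SGCE had at most 1, 5 and 3 counts in any KO library, and DIRAS3 at most 2 in any WT library. Each of them passed the filter through the other group only. MEST, PEG10 and SGCE went from 762, 325 and 5.71 CPM to 0.0447, 0.161 and 0.0531 CPM, and MAGEL2 from 0.916 to 0.485 CPM, with overlapping groups. H19 rose from 4.19 to 31.6 CPM, NAP1L5 from 3.33 to 8.29, CDKN1C from 2.61 to 5.31 and DIRAS3 from 0.0644 to 0.660 CPM.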

How the data were processed

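Total RNA of 3 WT and 3 CDK12 KO libraries of A2780 cells was sequenced as single-end stranded reads. The authors aligned reads to GRCh38 with STAR and counted them with HTSeq, and deposited raw counts per gene. Versions, annotation and the strand setting are not given in the sources used here. Of 60483 identifiers, 56321 were found in GENCODE 44, which gave names, positions and lengths.

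Genes were filtered with filterByExpr (minimum count 10, minimum total 15) and scaled by TMM, and KO was compared with WT with the two-sided quasi-likelihood test of edgeR 4.0.16, Benjamini-Hochberg adjusted over 16198 genes. The study used voom/limma and called genes past 1 on the log2 scale at an adjusted p below 0.05, the stricter rule here. Ratios were compared by exact permutation (scipy 1.17.1). Alternatives were RLE and upper-quartile scaling, limma 3.58.1, DESeq2 1.42.0, other filters, thinned counts and leaving out each library. Fits were tested on simulated data with 200 of 16198 genes changed, where edgeR recovered 190 of them and called 13 others. Far more genes, 63.9%, were called in the real data, so the simulation does not cover so wide a difference.

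The genes and lists were chosen with earlier results of these data known. Named are the 10 genes, CDK12, genes overlapping them, list genes past the stricter rule, the 2 largest rises and falls per list, and the 3 profiles nearest DNMT3B. Some of these items are not reported here. Others were named after their values were seen.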

Additional observations from a re-analysis of the deposited data

How the results depend on the processing

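For the 9 tested genes and CDK12, 130 values were recomputed under other scalings, filters, tools and sets of libraries, and 125 kept their direction and their side of the threshold. The call of DNMT3B under the stricter rule did not hold throughout. The number of genes past that rule, 1, became 0 under upper-quartile scaling (log2 fold change of DNMT3B -0.99) and 0 with at least 10 counts in every library (-0.99), and ranged from 0 to 1 when each library was left out. These settings moved DNMT3B by less than its SE. DNMT3A passed the test with voom/limma (adjusted p = 0.0476), and TRIM28 passed without WT replicate 1 or CDK12 KO replicate 2. TET2 ranged from -0.093 to 0.0041 when each library was left out, above 0 without WT replicate 2 (0.0041) or CDK12 KO replicate 2 (0.0026), and was never called. The canonical transcript length, chosen after the data were seen, changed levels per length and no fold change of a gene, but moved the log2 difference of the TET sum to DNMT3 sum ratio from 0.13 to 0.18, with groups that then did not overlap. No paired analysis was possible because the labels number the 6 samples in 1 run, so no number is shared between groups.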

Other observations

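No tested gene within 2 Mb of MBD2 was called higher along with it. Of these 7 neighbours, 5 were lower at an adjusted p under 0.05, beside 32.0% lower and 31.9% higher over all tested genes. Their median log2 fold change was -0.73. The only neighbour above MBD2 was ENSG00000277324, at 0.422 CPM in WT and 0.742 in KO (log2 fold change 0.56, adjusted p = 0.162). TCF4, a basic helix-loop-helix transcription factor gene, went from 342 to 20.8 CPM (log2 fold change -4.04, adjusted p = 4.00e-33). The others that fell were LINC01415 (-6.23), STARD6 (-1.21), C18orf54 (-0.73) and POLI (-0.44), named after their values were seen. LINC01415, at 3.70 CPM in WT and 0.0447 CPM in KO, was tested through its WT counts only. Around DNMT3B, 46 neighbours within 2 Mb had a median of -0.10, and 3 of them (PXMP4, PLAGL2 and ZNF341) had a lower log2 fold change than DNMT3B, at -2.53, -1.04 and -1.02.

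Of 8 fibroblast markers, 7 were tested and 6 were lower at an adjusted p under 0.05 (85.7%), beside 32.0% of all tested genes. DCN and LUM, with 0 counts in every KO library, were tested through their WT counts only. The list summed to 11112 to 11480 CPM in WT and 8544 to 8824 CPM in KO. COL1A2 went from 4577 to 2623 CPM and COL1A1 from 629 to 122 CPM, while COL3A1 was at 6006 and 5960 CPM.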
